A study of Mus musculus with 46 samples.

Results

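KDM2B variant PRC1.1 is a Polycomb complex, and the 9 mouse genes described here encode its subunits: Kdm2b, Pcgf1, Bcor, Bcorl1, Ring1, Rnf2, Rybp, Yaf2 and Usp7. They were chosen by that role and not by their levels, with earlier results of these data known. They are 9 of the 56980 genes counted in hSS2 tumours and of the 56941 counted in hSS1 tumours. RNA sequencing was performed on 46 mouse synovial sarcomas (SySs), each library from the whole frozen tissue of 1 tumour. Every mouse, controls included, carried a human fusion gene that is expressed from Rosa26 after Cre recombination, SS18::SSX2 in hSS2 and SS18::SSX1 in hSS1, and tumours were started by injection of TATCre protein into the limb. The 13 hSS2 control and 5 hSS1 control tumours carried the fusion with no floxed gene named in their labels. The 8 hSS2 Pbrm1-fl and 4 hSS1 Pbrm1-fl tumours also carried floxed Pbrm1, which encodes a subunit of the PBAF chromatin remodeller. The 8 hSS2 Arid1a-fl and 8 hSS2 Arid1b-fl tumours carried floxed Arid1a or Arid1b, which encode alternative subunits of the canonical BAF remodeller. The comparisons ask whether disruption of each BAF subunit in the presence of the fusion is accompanied by another level of the PRC1.1 genes. Recombination can be incomplete, and in bulk tissue fewer cells of a type and less RNA per cell cannot be told apart.

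Polycomb repressive complex 1 places monoubiquitin on histone H2A, a mark of silenced developmental genes that the SS18::SSX fusion protein is known to recognise on nucleosomes. In PRC1.1, KDM2B binds unmethylated CG dinucleotides through its zinc finger and so brings the complex to CG-rich gene starts. PCGF1 with BCOR or BCORL1 joins KDM2B to a catalytic core of RING1 or RNF2 (also named RING1A and RING1B) with RYBP or YAF2, and USP7 is a deubiquitinase that associates with the complex.

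Because KDM2B reads CG dinucleotides, the CG content of the members' own gene starts is shown first. The RefSeq table for GRCm38.p6 gave 10 windows of 250 bases directly upstream of a start for 6 of the 9 members, Kdm2b, Bcor, Bcorl1, Ring1, Rnf2 and Usp7. These windows held 12 to 55 CG dinucleotides, against a median of 6 over all 32851 windows, of which 92.1% held at least 1 CG. A selection of 4 windows follows, 5′ to 3′ on the gene's strand with each CG in capitals. The first pair are the upstream start of Kdm2b at chr5:122989100-122989349 and an internal start of the same gene at chr5:122900351-122900600. The others are the start of Rnf2 at chr1:151500992-151501241 and a RefSeq start of Usp7 at chr16:8738343-8738592, and all 4 lie on the minus strand. The Usp7 window lies inside the span that GENCODE gives the gene (8689595 to 8792308), as do both Kdm2b windows (122870665 to 122989823).
Kdm2b, upstream start: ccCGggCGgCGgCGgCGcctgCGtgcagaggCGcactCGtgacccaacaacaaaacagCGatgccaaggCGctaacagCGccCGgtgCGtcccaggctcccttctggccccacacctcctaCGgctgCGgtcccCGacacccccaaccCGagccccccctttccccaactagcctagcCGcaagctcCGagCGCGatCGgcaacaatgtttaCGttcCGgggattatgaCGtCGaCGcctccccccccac
Kdm2b, internal start: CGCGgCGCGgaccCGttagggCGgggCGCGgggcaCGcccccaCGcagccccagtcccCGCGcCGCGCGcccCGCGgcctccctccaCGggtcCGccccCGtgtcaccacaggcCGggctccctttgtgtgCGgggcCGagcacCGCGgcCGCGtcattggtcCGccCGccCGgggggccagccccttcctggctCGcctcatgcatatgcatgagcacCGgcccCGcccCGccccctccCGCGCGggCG
Rnf2: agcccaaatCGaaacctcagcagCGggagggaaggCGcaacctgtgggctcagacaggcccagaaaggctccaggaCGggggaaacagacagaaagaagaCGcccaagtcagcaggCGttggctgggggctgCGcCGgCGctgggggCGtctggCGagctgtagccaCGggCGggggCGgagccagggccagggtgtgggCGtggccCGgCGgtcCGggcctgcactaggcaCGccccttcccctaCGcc
Usp7: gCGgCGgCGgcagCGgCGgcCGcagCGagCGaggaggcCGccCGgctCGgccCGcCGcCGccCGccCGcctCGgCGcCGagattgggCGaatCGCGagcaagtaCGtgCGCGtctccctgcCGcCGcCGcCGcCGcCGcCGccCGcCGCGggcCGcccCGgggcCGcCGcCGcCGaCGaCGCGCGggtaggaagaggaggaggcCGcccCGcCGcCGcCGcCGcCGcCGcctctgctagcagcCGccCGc
The upstream Kdm2b window held 27 CG dinucleotides, a number reached by 8.56% of all windows, and the internal one held 38, reached by 1.88%. The Rnf2 window held 20 (17.9% of all windows held as many), that of Ring1 30 (5.94%), and that of Usp7 55 (0.00913%). The other windows were less rich: those of Bcor held 16 and 17 (25.4% and 23.5%), that of Bcorl1 18 (21.7%), and the remaining ones of Kdm2b 12 and 36 (33.5% and 2.58%). These counts describe the letters of the reference sequence, and no binding or methylation was measured in these libraries.

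The libraries held 10137668 to 21294657 counts each. Pbrm1 fell in hSS2 Pbrm1-fl tumours (log2 of the fold change, hereafter log2 change, -1.27, adjusted p = 4.2e-12, edgeR quasi-likelihood test) and Arid1a in hSS2 Arid1a-fl tumours (-0.95, 7.01e-05), with hSS2 control replicate 9 inside the Arid1a-fl range. Arid1b in Arid1b-fl tumours (-0.80, adjusted p = 0.145) and Pbrm1 in hSS1 Pbrm1-fl tumours (-0.75, 0.193) did not pass the threshold of 0.05, and 9 control tumours lay inside the Arid1b-fl range of Arid1b. Of 9 markers of SyS, 8 were matched by symbol, and none was at 0 in all libraries of any group. Skeletal muscle markers (12 genes) summed to between 7.93 and 89218 CPM (a gene's reads per 1000000 reads of its library), with ranges that overlapped between the floxed and control groups, and erythroid markers reached 43150 CPM in Arid1b-fl replicate 5. The mouse numbers in the labels fell into ranges that coincide with the floxed gene: hSS2 Pbrm1-fl mice were all numbered 2000 or over, Arid1a-fl mice under 1000, and Arid1b-fl and hSS1 Pbrm1-fl mice from 1000 to under 2000, whereas hSS2 control mice were spread over all 3 ranges (5, 4 and 4) and hSS1 control mice over the upper 2 (3 and 2).

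All 9 members were detected in all 46 libraries, the lowest count of any being 96 reads of Pcgf1 in an Arid1b-fl tumour. Levels of different genes can be compared only per length, so CPM per kilobase of exon (CPM per kb) was used for the order of the members. On that scale the BCL6 corepressor gene Bcor stood highest, with a median over the 46 libraries of 76 CPM per kb (lowest 30.5, highest 163), and in hSS2 tumours 98.6% of the 17322 genes with a mean of at least 1 CPM had a lower median. Its paralog Bcorl1 lay at 11.8 CPM per kb. Next to Bcor came the deubiquitinase gene Usp7 at 26.5 and Rybp at 25.1 CPM per kb, with ranges over the libraries of 19.2 to 34.5 and 8.1 to 76.5. The order of these neighbours differed by background: in hSS2 Usp7 had a median of 25.8 and Rybp one of 22.6 CPM per kb, whereas in hSS1 Rybp had 43.6 and Usp7 27.8, and all 5 hSS1 controls had Rybp above the highest Usp7 of any library.

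Of the E3 ligase genes, Rnf2 had a median of 18 CPM per kb and Ring1 one of 11.6. The RYBP paralog gene Yaf2 lay at 7.89 CPM per kb. The lowest members were Pcgf1 at 5.83 CPM per kb and Kdm2b, the DNA-binding subunit, at 4.79 (lowest 3.41, highest 6.58), with 46.1% of genes below Kdm2b in hSS2 tumours. The ranges of Kdm2b, Pcgf1 (3.73 to 13.8 CPM per kb) and Yaf2 (5.24 to 14.6) over the 46 libraries overlapped. The order among these 3 within each library was not compared.

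The members differed in how much they varied between tumours of 1 group. Usp7 and Kdm2b varied least, with a standard deviation within hSS2 groups of 0.15 and 0.19 on the log2 CPM scale, and Rybp varied most (0.54), followed by Bcor and Bcorl1 (0.42 each). Over all 46 libraries the highest level was 1.8 times the lowest for Usp7 and 9.44 times the lowest for Rybp. In hSS1 groups the order was another: Bcor had the largest standard deviation (0.67), followed by Pcgf1 (0.48), Yaf2 (0.40) and Rybp (0.36), and Usp7 (0.12), Ring1 (0.14) and Kdm2b (0.17) the smallest. Between backgrounds, Rybp was at 206 to 363 CPM (median 242) in hSS1 controls and at 51.1 to 194 CPM (median 111) in hSS2 controls, and Pcgf1 had control medians of 19.5 and 8.14 CPM. Background and count table coincide, so these differences were not tested.

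**Figure D1:**
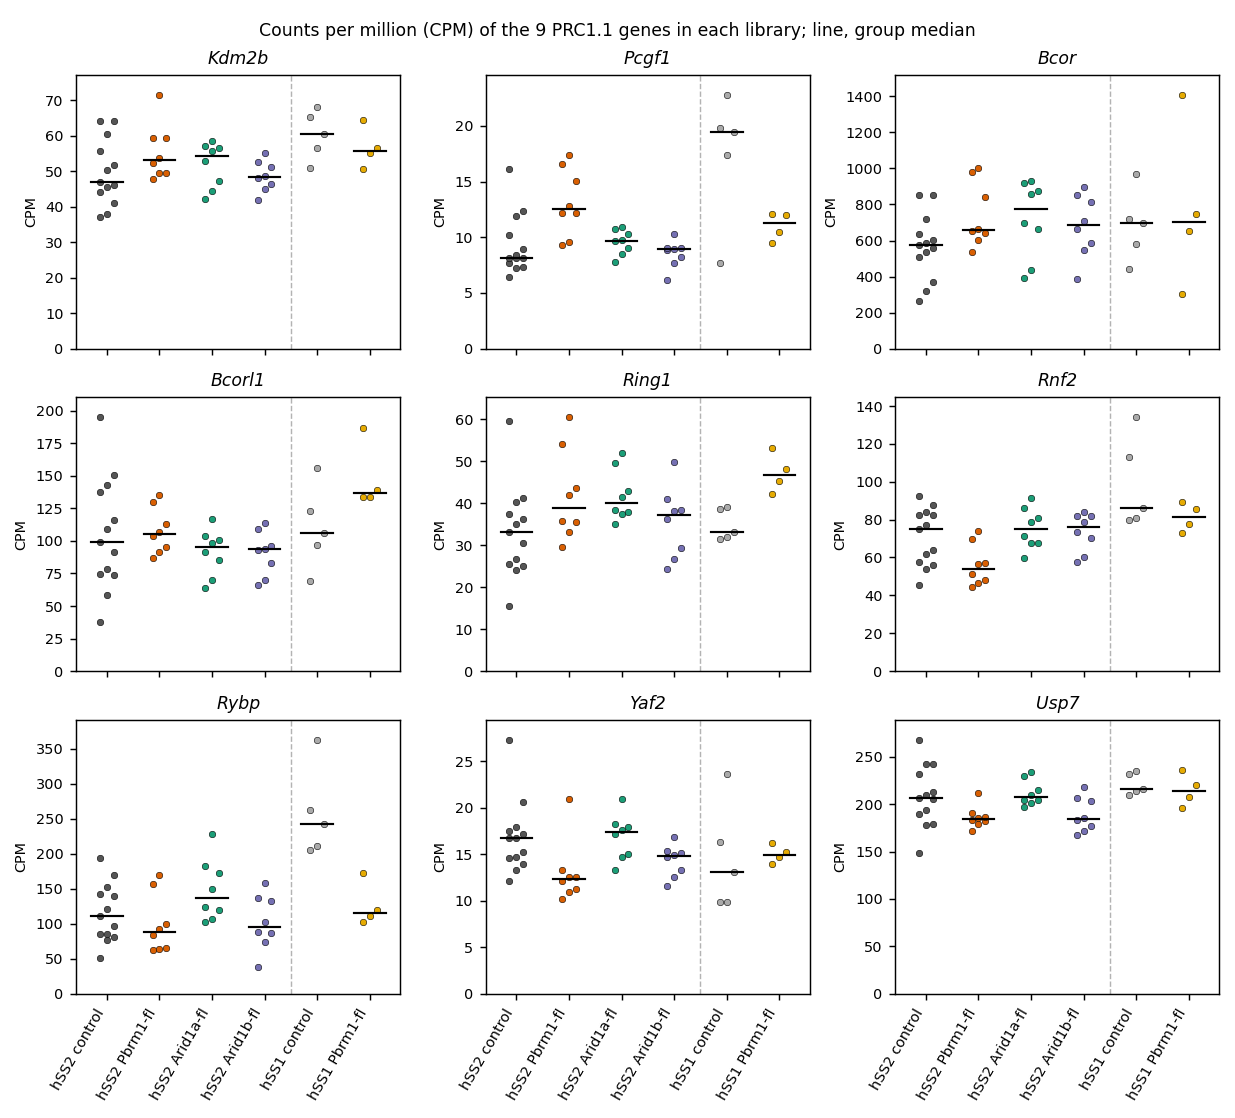
Level of each of the 9 PRC1.1 genes in every library, in CPM on linear axes that start at 0. Each point is 1 tumour, the line is the group median, and the dashed line separates hSS2 from hSS1 tumours. Pcgf1 in all 8 hSS2 Pbrm1-fl tumours was above the hSS2 control median of 8.14 CPM, and Rnf2 in all 8 was below that of 74.8 CPM.

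In hSS2 tumours with floxed Pbrm1, 2 of the 9 members passed the test: Pcgf1 rose by 0.48 and Rnf2 fell by 0.36 on the log2 scale. Over all 20083 genes tested in the same fit, 7.35% passed, 3.4% (683) higher and 3.95% (793) lower. In all, 6 members had an unadjusted p under 0.05, as had 22.4% of all genes, and the median log2 change was 0.03 over the 9 members and 0.00 over all genes tested.

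Kdm2b, the targeting subunit, ran from 37.1 to 64.2 CPM in hSS2 controls (median 46.9) and from 47.7 to 71.5 CPM in Pbrm1-fl tumours (median 53.1). Every Pbrm1-fl tumour lay above the control median, but the ranges overlapped and the difference did not pass (log2 change 0.15 ± 0.09 SE, adjusted p = 0.335, n = 8 and 13, edgeR quasi-likelihood test). Pcgf1, the Polycomb group ring finger subunit that defines this variant, ran from 6.42 to 16.1 CPM in controls (median 8.14) and from 9.34 to 17.4 CPM in Pbrm1-fl tumours (median 12.5). All 8 Pbrm1-fl tumours were above the control median, and the ranges overlapped because of hSS2 control replicates such as replicate 12 at 16.1 CPM. The increase was 1.4-fold (log2 0.48 ± 0.13 SE, adjusted p = 0.0198, edgeR).

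Bcor and Bcorl1 encode the alternative scaffolds that link PCGF1 to KDM2B. Bcor had a control median of 575 CPM (264 to 852) and a Pbrm1-fl median of 660 CPM (535 to 1004), with a log2 change of 0.37 ± 0.18 SE that did not pass (adjusted p = 0.207, edgeR). The genes of chromosome X, on which both lie, had a median log2 change of -0.20 in this comparison, the lowest of 20 chromosomes. Bcorl1 had medians of 99 and 106 CPM and a log2 change of 0.03, with a 95% interval from -0.32 to 0.38.

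The catalytic pair had values on opposite sides of 0. Rnf2, the ligase subunit with the higher level here, ran from 45.7 to 92.4 CPM in controls (median 74.8) and from 44.3 to 73.8 CPM in Pbrm1-fl tumours (median 54.1). Every Pbrm1-fl tumour was below the control median, and the ranges overlapped over most of the Pbrm1-fl range. The decrease passed narrowly (log2 change -0.36 ± 0.11 SE, adjusted p = 0.0485, edgeR). Ring1 had medians of 33.1 CPM (15.4 to 59.5) in controls and 38.8 CPM (29.5 to 60.4) in Pbrm1-fl tumours, and its log2 change of 0.31 ± 0.15 SE did not pass (adjusted p = 0.222, edgeR).

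Rybp and Yaf2 encode the paralogous subunits that stimulate the ligase core. Yaf2 ran from 12.1 to 27.3 CPM in controls (median 16.7), and in 7 of 8 Pbrm1-fl tumours it lay between 10.2 and 13.3 CPM, with replicate 3 at 20.9 CPM. Its log2 change was -0.39 ± 0.13 SE (adjusted p = 0.0635, edgeR). Without Pbrm1-fl replicate 3 or control replicate 9 or 10 it passed (lowest adjusted p 0.00865). Rybp had medians of 111 CPM (51.1 to 194) and 88.1 CPM (62.3 to 170) and a log2 change of -0.25 ± 0.23 SE. Usp7 had medians of 207 CPM (149 to 268) and 184 CPM (172 to 212), with a log2 change of -0.18 ± 0.07 SE and an adjusted p of 0.118 (edgeR), which became 0.0283 without control replicate 1.

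**Figure D2:**
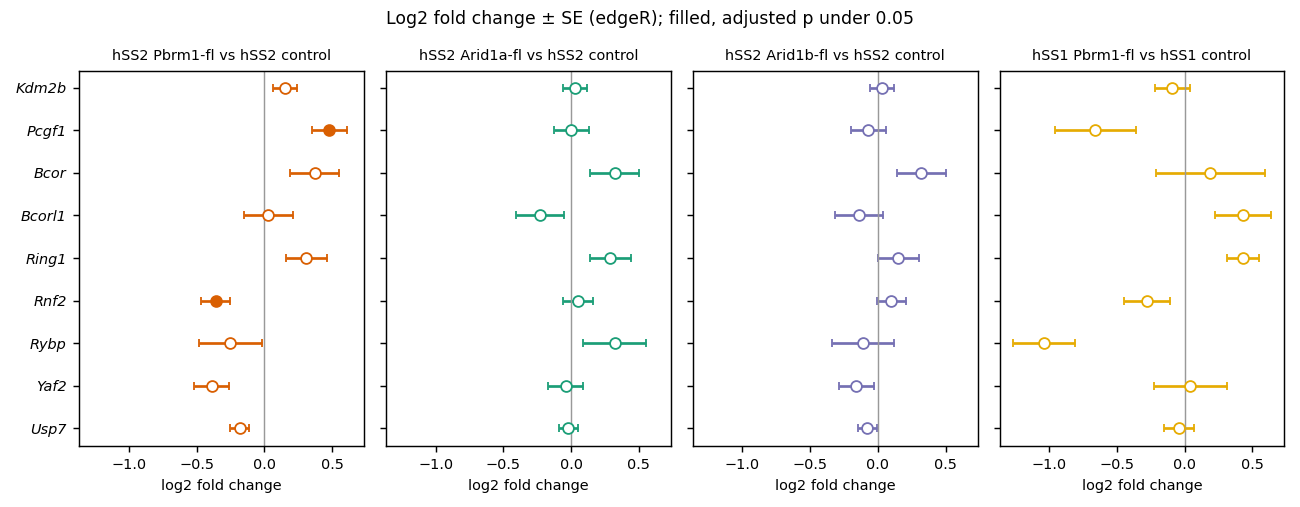
Log2 change of each member, floxed against control tumours, in the 4 comparisons (horizontal axis, log2 scale, shared by the panels). Points are edgeR estimates, bars are ± 1 SE, and filled points have an adjusted p under 0.05. Pcgf1 (0.48) and Rnf2 (-0.36) in hSS2 Pbrm1-fl are filled, and the point farthest from 0 is Rybp in hSS1 Pbrm1-fl (-1.04), which is open.

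Both calls were also set against the controls numbered in the same range as Pbrm1-fl mice. The 4 control tumours numbered 2000 or over held 8.11, 8.93, 7.27 and 7.33 CPM of Pcgf1, all below the lowest Pbrm1-fl tumour at 9.34 CPM. Groups were separated in this way for 1.74% of all genes. Against these controls the log2 change of Pcgf1 was 0.72 (adjusted p = 0.024, edgeR). For Rnf2 the same 4 controls held 77, 53.8, 45.7 and 56.1 CPM, inside or near the Pbrm1-fl range, whereas the controls of the other ranges held 57.7 to 92.4 CPM. Against controls of its own range Rnf2 had a log2 change of -0.07 (adjusted p = 0.916), so the lower Rnf2 of Pbrm1-fl tumours did not hold within the range. Yaf2 had -0.58 within the range (adjusted p = 0.0612).

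**Figure D3:**
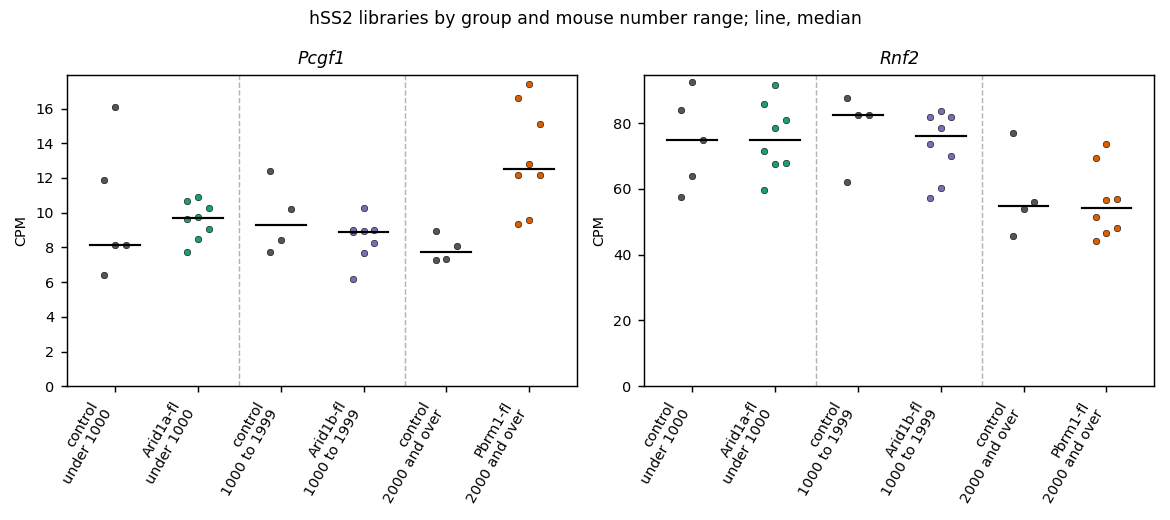
Pcgf1 (left) and Rnf2 (right) in CPM in hSS2 tumours, each floxed group beside the controls that share its range of mouse numbers. Points are tumours and lines are medians. Among tumours numbered 2000 and over, the Pbrm1-fl tumours lie above the 4 controls for Pcgf1, and the medians for Rnf2 are 54.1 CPM in Pbrm1-fl and 55 CPM in controls.

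Leaving out 1 library at a time, the Pcgf1 call held in 19 of 21 fits and was lost without Pbrm1-fl replicate 3 (adjusted p = 0.0821, edgeR) or replicate 7 (0.0555). The Rnf2 call held in 10 of 21 fits, with log2 changes from -0.44 to -0.32 and adjusted p from 0.0118 to 0.108. It was lost without any one of Pbrm1-fl replicates 2 to 6 or of control replicates 1, 6, 7, 8, 12 and 13. Among markers of other cells, muscle sums had medians of 506 CPM in Pbrm1-fl and 10788 CPM in control tumours, and fibroblast sums medians of 1969 and 975 CPM, with all 8 Pbrm1-fl tumours above the control median. Of the 8 SyS markers 1 passed: Twist1, a mesenchymal transcription factor gene, rose by 1.19 (adjusted p = 0.00109). The others did not pass. Log2 changes were below 0 for Penk (-1.62, adjusted p = 0.215), Sox2 (-1.39, 0.11), Epcam (-0.87, 0.334), Bcl2 (-0.72, 0.0521) and Tle1 (-0.30, 0.164). Nnat had -0.01 (0.996) and Zic1 0.31 (0.883). Medians in Pbrm1-fl and control tumours were 7.77 and 40.6 CPM for Sox2, 4.4 and 16.7 CPM for Epcam, and 173 and 100 CPM for Nnat. The part of fibroblast and SyS markers in the calls was not tested. Without the libraries whose muscle markers summed to over 10000 CPM, neither passed: Pcgf1 had 0.60 (adjusted p = 0.072) and Rnf2 -0.15 (0.686). With a fit of the Pbrm1-fl and control groups alone, Pcgf1 had 0.46 (adjusted p = 0.0976) and Rnf2 -0.39 (0.101), and with no filter on low counts Pcgf1 passed (0.043) and Rnf2 did not (0.0783). The genes of chromosome 1, which carries Rnf2, had a median log2 change of -0.11 with 66.1% below 0, against 50.5% of all genes. With libraries scaled within each chromosome, Rnf2 had -0.25 (adjusted p = 0.204), Pcgf1 0.49 (0.0102) and Yaf2 -0.40 (0.032).

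In hSS2 Arid1a-fl tumours none of the 9 members passed against all hSS2 controls, and none had an unadjusted p under 0.05 by edgeR. DESeq2 also called none of the 9. Over all genes tested, 3.17% passed and 23% had an unadjusted p under 0.05. The 637 genes called became 56 without Arid1a-fl replicate 8 and 1416 without replicate 6. Pcgf1, at 7.75 to 10.9 CPM (median 9.71), had a log2 change of 0.00 with a 95% interval from -0.26 to 0.26, and Rnf2, at 59.7 to 91.5 CPM (median 74.9), had 0.05 (-0.18 to 0.27). The members with the largest values were Bcor (0.32 ± 0.18 SE), Rybp (0.32 ± 0.23 SE) and Ring1 (0.29 ± 0.15 SE). All 8 Arid1a-fl tumours had Ring1 above the control median, at 35 to 51.9 CPM, and the smallest adjusted p among the 9 members was that of Ring1 (0.245). Kdm2b, at 42.2 to 58.4 CPM, had 0.03 (-0.15 to 0.20). Against controls of the same mouse number range, Usp7 had -0.19 (unadjusted p = 0.0169, adjusted p = 0.11, edgeR). Bcor had 0.55 in that setting (unadjusted p = 0.0228, adjusted p = 0.129), and neither passed.

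In hSS2 Arid1b-fl tumours none of the 9 members passed either, and none had an unadjusted p under 0.05 by edgeR. DESeq2 called none of them in this comparison. Over all genes tested, 0.0548% passed, 11 genes in all (6 without Arid1b-fl replicate 5), and 6.22% had an unadjusted p under 0.05. Bcor had the largest log2 change (0.32 ± 0.18 SE, adjusted p = 0.801), and the other 8 lay between -0.16 and 0.15. Kdm2b, at 41.8 to 55 CPM, had 0.03 (95% interval -0.14 to 0.21), and Pcgf1, at 6.16 to 10.3 CPM, had -0.07 (-0.33 to 0.19). The 3 floxed groups of hSS2 were compared with the same 13 controls, so these estimates are not independent of each other.

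Pcgf1 and Rnf2 also differed between floxed groups of hSS2. Pcgf1 was higher in Pbrm1-fl than in Arid1a-fl tumours (log2 0.48, adjusted p = 0.0273, edgeR) and than in Arid1b-fl tumours (0.55, 0.0237). Rnf2 was lower in Pbrm1-fl than in Arid1a-fl (-0.41, adjusted p = 0.0298) and than in Arid1b-fl tumours (-0.46, 0.0276), and all 8 Pbrm1-fl tumours were below the median of either group. Over all genes, 12.3% and 4.37% passed in these comparisons. No member passed between Arid1a-fl and Arid1b-fl tumours by edgeR or DESeq2 or had an unadjusted p under 0.05 by edgeR, where 0.0996% of genes passed. The chromosomes of both genes were shifted in these comparisons. The genes of chromosome 6, which carries Pcgf1, had the highest median of 20 chromosomes, 0.20 against Arid1a-fl and 0.11 against Arid1b-fl, and those of chromosome 1 had a median of 0.00 against Arid1a-fl and the lowest, -0.19 with 74.1% below 0, against Arid1b-fl. Scaled within each chromosome, Pcgf1 did not pass against Arid1a-fl (0.29, adjusted p = 0.149) and passed against Arid1b-fl (0.46, 0.0436), whereas Rnf2 passed against Arid1a-fl (-0.39, 0.0385) and not against Arid1b-fl (-0.27, 0.269). With no filter on low counts Pcgf1 passed in neither (adjusted p = 0.0662 and 0.0508). These groups share no mouse number range, and with each group set against the controls of its own range neither gene passed, so genotype and range cannot be told apart here.

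In hSS1 tumours with floxed Pbrm1, the members farthest from their controls were Rybp, lower, and Ring1, higher. None of the 9 passed with edgeR, 2 had an unadjusted p under 0.05, and 1 of 17786 genes (0.00562%) was called, although 3059 genes had an unadjusted p under 0.05. Rybp measured 211, 242, 206, 263 and 363 CPM in the 5 controls and 102 to 173 CPM in the 4 Pbrm1-fl tumours (1044, 1306, 1126 and 1940 reads), so that every Pbrm1-fl tumour lay below every control. Its log2 change was -1.04 ± 0.23 SE (p = 0.00158, adjusted p = 0.121, edgeR quasi-likelihood test). Ring1 measured 38.6, 31.9, 33.2, 39.1 and 31.5 CPM in controls and 48.1, 45.2, 42.1 and 53 CPM in Pbrm1-fl tumours, again without overlap, with a log2 change of 0.43 ± 0.12 SE (p = 0.00678, adjusted p = 0.164). Groups did not overlap for 7.12% of all genes tested and for these 2 of the 9 members. DESeq2, which called 1184 genes in this comparison, called both (adjusted p = 0.00272 for Rybp and 0.0217 for Ring1).

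Pcgf1 in hSS1 had values on the other side of its controls from hSS2. The hSS1 controls held 17.4, 19.8, 19.5, 7.71 and 22.8 CPM and the Pbrm1-fl tumours 10.5, 9.44, 12.1 and 12 CPM. Control replicate 4 lay below all 4 Pbrm1-fl tumours and the other 4 controls above them. The log2 change was -0.66 ± 0.30 SE (adjusted p = 0.3, edgeR) and without that control -0.84 (0.098).

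The scaffold gene Bcorl1 was at 187, 139, 134 and 134 CPM in hSS1 Pbrm1-fl tumours and at 123, 96.9, 156, 106 and 69.6 CPM in controls (log2 change 0.43 ± 0.21 SE, adjusted p = 0.329). Bcor ranged from 303 to 1409 CPM among the 4 Pbrm1-fl tumours and from 440 to 970 CPM among controls, and its interval ran from -0.59 to 0.96. Kdm2b, at 50.6 to 64.5 CPM in Pbrm1-fl tumours and 50.9 to 68 CPM in controls, had -0.09 (95% interval -0.34 to 0.17). Rnf2 had -0.28 (-0.62 to 0.07), Yaf2 0.04 (-0.49 to 0.58) and Usp7 -0.04 (-0.25 to 0.17).

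Other values moved with Rybp and Pcgf1 in hSS1. Both genes lie on chromosome 6 (GRCm38, Pcgf1 at 83077869 to 83080855 and Rybp at 100228565 to 100287485), and the 906 genes tested there had a median log2 change of -0.41, with 78.8% below 0 against 48.9% of all genes. This was the lowest median of 20 chromosomes, the others running from -0.16 to 0.12. Per library, the median of the chromosome 6 genes relative to the control median was -0.54 to -0.34 in the 4 Pbrm1-fl tumours and -0.16 to 0.00 in the 5 controls. Fibroblast markers (5 genes) summed to 622 to 2433 CPM in Pbrm1-fl tumours and to 381 to 911 CPM in controls, and proliferation markers (8 genes) to 460 to 1234 and 911 to 2229 CPM. Scaled within each chromosome, Rybp had a log2 change of -0.63 (adjusted p = 0.231) and Pcgf1 one of -0.21 (0.72). The part of the markers in either result was not tested. In hSS2 Pbrm1-fl tumours the chromosome 6 median was -0.01.

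**Figure D4:**
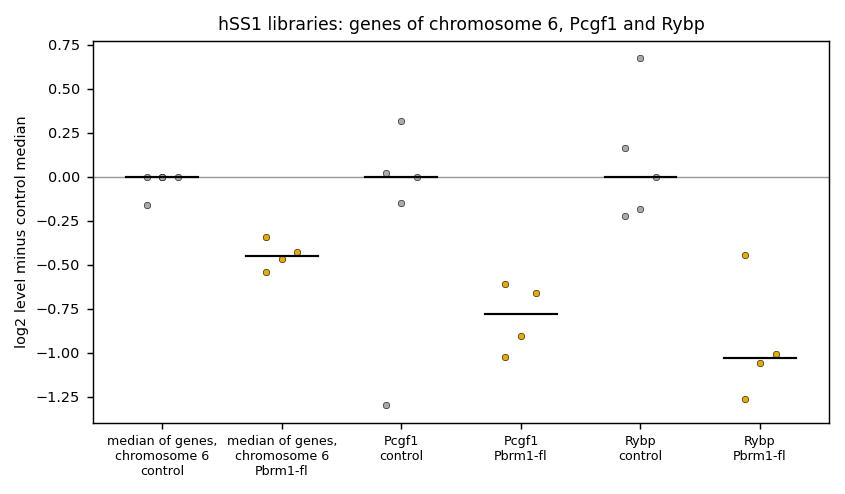
The 9 hSS1 libraries: median over the 906 tested genes of chromosome 6, Pcgf1 and Rybp, each as log2 level minus the control median (vertical axis). Points are tumours and lines are group medians. The 4 Pbrm1-fl tumours lie from -0.54 to -0.34 for the chromosome median, outside the control range of -0.16 to 0.00, and the low Pcgf1 point among controls is replicate 4.

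The difference between backgrounds was tested directly, by subtracting the hSS2 effect of Pbrm1-fl from its effect in hSS1. Pcgf1 was the 1 member of 9 that passed, with 2.86% of 21725 genes passing (622 genes, or 235 without hSS1 control replicate 3): its effect was 1.15 lower in hSS1 on the log2 scale (-1.15 ± 0.26 SE, adjusted p = 0.015, edgeR), 0.48 in hSS2 against -0.66 in hSS1. The call held in all 30 fits that left out 1 library of these 4 groups (adjusted p from 0.00159 to 0.0448). It did not hold against controls of the same range (-1.36, adjusted p = 0.0621), without muscle-rich libraries (-1.23, 0.0587) or with scaling within each chromosome (-0.72, 0.0827), in each of which the sign was kept. For Rybp the difference was -0.80 ± 0.40 SE (adjusted p = 0.269) and for Yaf2 0.42 ± 0.25 SE (0.365). The other 6 members lay between -0.24 and 0.39, with adjusted p of 0.401 or more.

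RNF2 and RING1, RYBP and YAF2, and BCOR and BCORL1 take each other's place in the complex. Their ratios were therefore computed within each library, where scaling cancels. The ratio of Kdm2b to its paralog Kdm2a, which is not among the members, was computed as well. The log2 ratio of Rnf2 to Ring1 had a mean of 1.13 ± 0.58 (SD, n = 13) in hSS2 controls and of 0.44 ± 0.22 (SD, n = 8) in Pbrm1-fl tumours. All 8 lay below the control median, and the difference of -0.69 had an exact permutation p of 0.00366, or 0.0585 adjusted over the 16 ratio tests. Against controls of the same range it was -0.18. In Arid1a-fl tumours this ratio differed by -0.28 from all hSS2 controls (exact permutation p = 0.213) and by -0.61 from controls of the same range. The latter had an exact permutation p of 0.0218 (adjusted 0.183), and all 8 tumours lay below the median of those controls. In hSS1 the ratio was 1.47 ± 0.44 (SD, n = 5) in controls and 0.79 ± 0.25 (SD, n = 4) in Pbrm1-fl tumours, a difference of -0.69 (exact permutation p = 0.0476, adjusted 0.254).

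The log2 ratio of Rybp to Yaf2 in hSS1 was 4.18 ± 0.64 (SD, n = 5) in controls and 3.03 ± 0.38 (SD, n = 4) in Pbrm1-fl tumours (difference -1.15, exact permutation p = 0.0238, adjusted 0.19). In hSS2 Pbrm1-fl tumours that ratio differed by 0.14 (exact permutation p = 0.611). The ratio of Bcor to Bcorl1 differed from controls by -0.43 to 0.46 over the 4 comparisons and that of Kdm2b to its paralog Kdm2a by -0.28 to 0.23. None of the 16 tests had an adjusted p under 0.05. In hSS1 the smallest p that 4 against 5 tumours allow in the exact permutation test is 0.00794. An hSS1 ratio could therefore not have passed by itself after adjustment over 16 tests.

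The other genes of the Polycomb pathway, 56 of 57 listed and tested in hSS2, comprised other variant PRC1 (18), canonical PRC1 (14), PRC2 (12), H2A deubiquitinases (10) and Kdm2a with a partner gene (2). In hSS2 Pbrm1-fl tumours 1 of these 56 passed (1.79%, against 7.35% of all genes): Asxl3, which encodes a cofactor of the H2A deubiquitinase BAP1, was at 10.4 to 17.9 CPM (median 14.7) against 12.3 to 65.4 CPM in controls (median 22.5), with a log2 change of -0.93 ± 0.25 SE (adjusted p = 0.017, edgeR). In Arid1a-fl tumours the 1 gene that passed (1.79%, against 3.17%) was Rbbp4, a histone-binding subunit of PRC2 and other complexes, at a median of 200 CPM against 154 CPM (log2 0.45 ± 0.12 SE, adjusted p = 0.0405). In Arid1b-fl tumours none of the 56 passed, and Jarid2, a PRC2 cofactor, had the smallest p (log2 change 0.33, adjusted p = 0.767, edgeR).

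In hSS1 Pbrm1-fl tumours none of 55 passed. The smallest p-values were those of Cbx3, a heterochromatin protein found in the PCGF6 variant (log2 -0.84, adjusted p = 0.115), Suz12, a core subunit of PRC2 (-0.46, 0.121), and Phf1, a PRC2 accessory gene (0.83, 0.157). Mga, the DNA-binding subunit of the PCGF6 variant, was the 1 of 56 that passed for the difference between backgrounds (0.62 ± 0.17 SE, adjusted p = 0.0332, edgeR). Between Pbrm1-fl and Arid1a-fl tumours 4 of 56 passed (7.14%, against 12.3% of all genes). Asxl3 (-0.91, adjusted p = 0.0216), Mga (-0.33, 0.00987) and Phc2, a canonical PRC1 gene (-0.34, 0.0154), were lower in Pbrm1-fl, and Cbx7, a chromobox gene of canonical PRC1, was higher (0.94, 0.0152). Against Arid1b-fl tumours Asxl3 alone of the 56 passed (-1.03, adjusted p = 0.0214), and between Arid1a-fl and Arid1b-fl tumours none did by edgeR, with 7 at an unadjusted p under 0.05.

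The median log2 change over these genes was 0.04, 0.06, 0.01 and -0.12 in the Pbrm1-fl, Arid1a-fl and Arid1b-fl comparisons of hSS2 and the Pbrm1-fl comparison of hSS1, against 0.00, -0.04, 0.00 and 0.01 over all genes tested.

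Bcor, the member with the highest level, followed a feature of the libraries that is no group of the study. Its gene is on chromosome X, and libraries were divided by whether Xist, the transcript of the inactive X chromosome, or the summed Y-linked genes were higher. The labels give no sex. The 22 hSS2 libraries with more Xist had a Bcor median of 828 CPM (372 to 1004), and the other 15 had 546 CPM (264 to 695). With this division as a term beside genotype, Bcor was higher by 0.55 ± 0.10 SE on the log2 scale in the Xist libraries (p = 3.57e-06, adjusted p = 0.00149, edgeR), where 1.95% of all genes passed and 9.81% of 622 genes of chromosome X were higher.

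In Arid1a-fl tumours Bcor was at 858 to 932 CPM in the 4 Xist libraries and at 393 to 695 CPM in the other 4, a separation found for 7.84% of all genes. In Arid1b-fl tumours it was at 666 to 895 CPM in 5 and 384 to 584 CPM in 3, again without overlap (4.01% of genes), whereas in hSS2 control and Pbrm1-fl tumours the ranges overlapped. In hSS1 the 7 Xist libraries held 580 to 1409 CPM and the other 2 held 440 and 303 CPM, without overlap (5.93% of genes) and with a difference of 1.14 ± 0.37 SE that did not pass (adjusted p = 0.665), with 0 genes called (DESeq2 was not run for this term) and Bcor at an unadjusted p of 0.0149. Bcorl1, also on chromosome X, had 0.08 ± 0.14 SE in hSS2 (adjusted p = 0.842). None of the other 7 members passed in hSS2 (adjusted p of 0.217 or more). Control replicates 2, 3 and 7 of hSS2 held both Xist and the Y-linked gene Ddx3y, and without them Bcor had 0.57 (adjusted p = 0.00148). With this term in the model, Bcor in hSS2 Pbrm1-fl tumours had the same log2 change of 0.37 with an SE of 0.13 (adjusted p = 0.0716, edgeR). It had 0.36 ± 0.13 SE in Arid1a-fl (adjusted p = 0.107) and 0.31 ± 0.13 SE in Arid1b-fl tumours (0.744), against the same controls.

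**Figure D5:**
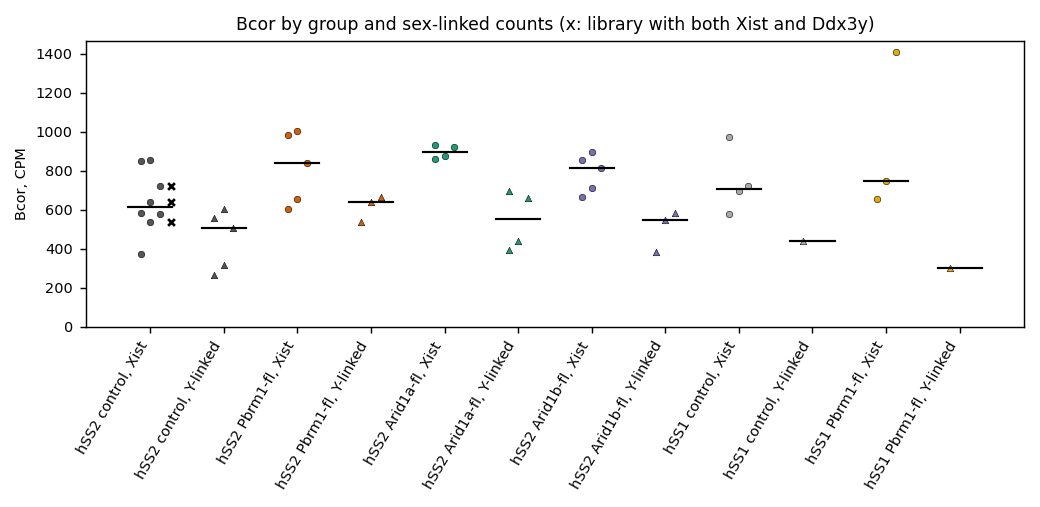
Bcor in CPM (vertical axis, from 0) by group and by the division of libraries into those with more Xist (circles) and those with more Y-linked counts (triangles). Points are tumours, lines are medians, and crosses mark the 3 hSS2 control libraries with both. In Arid1a-fl the circles run from 858 to 932 CPM, above the triangles at 393 to 695 CPM.

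Within groups the members did not vary as 1 block. After subtraction of group means, the 36 pairwise Pearson correlations of log2 CPM over the 37 hSS2 libraries ran from -0.53 (Ring1 with Usp7) to 0.42 (Pcgf1 with Rnf2, and Bcor with Rybp), with a median of -0.01, and 1 pair reached 0.5 in size. Over the 9 hSS1 libraries they ran from -0.81 to 0.80, with a median of 0.06, and Ring1 with Usp7 had 0.31. With levels scaled by library total instead, Ring1 with Usp7 had -0.25 and Pcgf1 with Rnf2 0.50 in hSS2. The points share library composition and depth. Summed macrophage markers correlated at -0.63 with Ring1 and at -0.50 with Pcgf1 over the hSS2 libraries. Over the hSS1 libraries these values were -0.10 and 0.02. The macrophage sums of hSS2 Pbrm1-fl (37.7 to 700 CPM) and control tumours (77.5 to 450 CPM) overlapped. Summed fibroblast markers correlated with Rybp at -0.50 in hSS2 and at -0.80 in hSS1. The part of macrophage markers in the Pcgf1 result, and of fibroblast markers in that of Rybp, was not tested.

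Among 17286 genes with a mean of at least 1 CPM, those whose levels followed Kdm2b most closely over the hSS2 libraries were Soga1 (r = 0.74), Ulbp1 (0.74), Ilvbl (0.73), Tbcc (0.71) and Pcnx3 (0.69), none on chromosome 5 with Kdm2b. Over the 9 hSS1 libraries the same 5 had r of 0.40, 0.05, -0.45, 0.15 and 0.63. For Pcgf1 the closest gene was Zfp212 (0.68, and 0.91 in hSS1), which lies 35145 kb away on chromosome 6. For Rnf2 it was Gm36527 (0.77, and 0.88 in hSS1) and for Rybp Gm44045 (0.86, and 0.63 in hSS1). Both are annotated inside the member's own span, so that counts of the pair may come from the same transcripts. For Bcor it was Psmd10 (0.80, and 0.32 in hSS1), also on chromosome X. The genes for Bcorl1, Ring1 and Usp7 had the other sign in hSS1: Kdm1b (0.76, and -0.72 in hSS1), Sirt4 (0.84, and -0.57) and Trpm7 (0.82, and -0.28). For Yaf2 it was Pphln1 (0.66, and 0.01 in hSS1), which lies 61.4 kb away.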

How the data were processed

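Raw read counts per Ensembl gene, which the authors deposited as 1 table for the 37 hSS2 libraries and 1 for the 9 hSS1 libraries, were used. Per the study's methods and processing notes, reads of ribosomal RNA-depleted, stranded libraries were aligned to mm10 with STAR 2.7.11 and counted with featureCounts 1.6.3, and the strand setting and annotation release were not given in the sources used here. Exons of Kdm2b overlap Gm44574 on the same strand and A930024E05Rik and Rnf34 on the other, and those of Rnf2 overlap Trmt1l on the other, so reads may be shared. Symbols, positions and exon lengths came from GENCODE for GRCm38.

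Groups came from the sample titles. Counts were filtered (filterByExpr), scaled by TMM and tested over all genes with edgeR 4.0.16 in R 4.3.3 (robust quasi-likelihood F-tests, two-sided, Benjamini-Hochberg adjustment, threshold 0.05), with 1 fit for hSS2, 1 for hSS1 and 1 over both for the difference of effects. DESeq2 1.42.0 was an alternative. Log2 ratios of CPM used a prior count of 2 and two-sided exact permutation tests. SEs are the size of the log2 change over the root of its F statistic, and the 95% intervals take them as normal, which makes those of the 9 hSS1 libraries too narrow. P-values set each difference against the spread between tumours. The fits were tested on simulated data. Of genes changed by 1 on the log2 scale, 72.9% were recovered in the hSS2 Pbrm1-fl comparison and 11.4% in the hSS1 one. For the difference between backgrounds 35.7% were. Of genes changed by 0.5, these shares were 36.7%, 0% and 5%. A member that did not pass is therefore not shown to be unchanged.

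The members and lists were chosen with earlier results of these data known. The rule for naming genes was all 9 members, the targeted genes, pathway genes that passed (or at most the 3 with the smallest p) and the closest genes by correlation. Pairs of libraries within a group all differed by more than counting noise.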

Additional observations from a re-analysis of the deposited data

Results flagged for a closer look

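Within groups of 4 to 10 libraries, 3 of 45 groups of values held a library far from the others by Dixon's test, where chance gives about 2.25. Bcorl1 was at 187 CPM in hSS1 Pbrm1-fl replicate 1, with the other 3 tumours of that group between 134 and 139 CPM. Replicate 3 of hSS2 Pbrm1-fl stood apart for both Yaf2 and Usp7. Yaf2 was at 20.9 CPM there, and the next highest tumour was at 13.3 CPM. Usp7 was at 212 CPM there, and the next highest was at 191 CPM.

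The Pbrm1-fl effect on Pcgf1 differed between backgrounds by the test of the difference itself (-1.15 on the log2 scale, hSS1 minus hSS2).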

How the results depend on the processing

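No paired analysis was made, because the labels number the mice and do not name their litters. The paper describes littermate controls for its tumour growth cohorts. Counts of members called depended on the settings as follows. In hSS2 Pbrm1-fl, 2 members were called, against 0 at an adjusted p under 0.01, 1 with controls of the same mouse number range, 1 without a filter on low counts, 0 with only the groups compared in the fit, and 1 to 3 when 1 library was left out. In hSS1 Pbrm1-fl, 0 were called by edgeR and 2 by DESeq2. For the difference between backgrounds, 1 was called, against 0 at an adjusted p under 0.01 and 0 with same-range controls. Between Pbrm1-fl and either Arid1a-fl or Arid1b-fl, 2 were called, against 0 at an adjusted p under 0.01, 0 with same-range controls and 1 without the filter. The following alternatives were chosen after seeing the data. Without the muscle-rich libraries, 0 were called in hSS2 Pbrm1-fl and 0 for the difference between backgrounds. With TMM within each chromosome, 0 were called for that difference and 1 between Pbrm1-fl and Arid1b-fl. The other alternatives so chosen left out the blood-rich library or the libraries with both Xist and Ddx3y, or varied the term for Xist.

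The text names 51 member changes, of all 9 members in 5 comparisons and of Pcgf1 and Rnf2 between floxed groups. Of their 489 values under settings other than leaving out a library, 443 kept their sign and side of the threshold and 24 changed sign. Their values as reported were 0.23 or less in size, and the cause was not tested. The other 7 members between floxed groups are not counted, and with same-range controls some of them also changed sign, among them Usp7 (-0.16 to 0.15) and Bcor (0.06 to -0.31) between Pbrm1-fl and Arid1a-fl. Among the 51 named changes, those that changed sign with same-range controls were, in hSS2 Pbrm1-fl, Kdm2b 0.00 and Bcorl1 -0.15. In Arid1a-fl they were Pcgf1 -0.13, Bcorl1 0.09, Rnf2 -0.04 and Yaf2 0.07, and in Arid1b-fl Rnf2 -0.04 and Usp7 0.02. For the difference between backgrounds they were Rnf2 -0.26 and Usp7 -0.03. The ratio differences that changed sign in that setting were Rybp to Yaf2 in Arid1b-fl (-0.21) and Kdm2b to Kdm2a in Pbrm1-fl (-0.09), Arid1a-fl (0.14) and Arid1b-fl (0.10). Without muscle-rich libraries they were Bcorl1 -0.04 in Pbrm1-fl, Kdm2b -0.05 and Pcgf1 -0.07 in Arid1a-fl, Kdm2b -0.02 in Arid1b-fl and Rnf2 -0.10 for the difference. With the Xist term Pcgf1 was -0.03 in Arid1a-fl. With TMM within each chromosome Bcorl1 was 0.02 in Arid1a-fl, and Pcgf1 was 0.03 and Bcorl1 0.08 in Arid1b-fl. Rnf2 between Arid1a-fl and Arid1b-fl was 0.13 in that setting. Without the libraries with Xist and Ddx3y, Rnf2 was -0.02 in Arid1a-fl and Bcorl1 0.00 in Arid1b-fl. With only the groups compared Usp7 was 0.00 in Arid1a-fl, and without the blood-rich library Kdm2b was -0.01 in Arid1b-fl. The Xist coefficient of Bcorl1 in hSS2 was -0.01 in both of its alternatives.

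When 1 library was left out, 865 of 918 values kept their sign and side. Those that changed sign had ranges of -0.65 to 0.08 (Bcor, difference between backgrounds), -0.26 to 0.46 (Bcor, hSS1), -0.05 to 0.11 (Bcorl1, hSS2 Pbrm1-fl), -0.09 to 0.02 (Usp7, hSS1) and -0.07 to 0.31 (Yaf2, hSS1). In Arid1a-fl they were 0.00 to 0.07 (Kdm2b), -0.03 to 0.09 (Pcgf1), 0.00 to 0.09 (Rnf2), -0.05 to 0.01 (Usp7) and -0.08 to 0.04 (Yaf2), and in Arid1b-fl -0.01 to 0.07 (Kdm2b), -0.13 to 0.01 (Pcgf1) and -0.26 to 0.03 (Rybp). Ratio differences ranged from -0.09 to 0.03 (Kdm2b to Kdm2a, Arid1a-fl), -0.08 to 0.03 (Kdm2b to Kdm2a, Arid1b-fl), -0.13 to 0.05 (Rnf2 to Ring1, Arid1b-fl), -0.11 to 0.20 (Rybp to Yaf2, Arid1b-fl) and -0.76 to -0.58 (Rnf2 to Ring1, hSS2 Pbrm1-fl, past the threshold in 4). Relative counting error is largest for Pcgf1, with 96 reads in its lowest library.

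Over all genes, counts of calls also moved by over 1.5 times. Leaving out 1 library gave 56 to 1416 calls in Arid1a-fl, 235 to 876 for the difference between backgrounds, 6 to 15 in Arid1b-fl and 0 to 4 in hSS1 Pbrm1-fl. DESeq2 called 1184 against 1 in hSS1 Pbrm1-fl, 1696 against 637 in Arid1a-fl, 1195 against 622 for the difference between backgrounds, 1426 against 878 between Pbrm1-fl and Arid1b-fl, and 215 against 20 between Arid1a-fl and Arid1b-fl. Same-range controls gave 477 against 1476 in hSS2 Pbrm1-fl, 1405 in Arid1a-fl, 0 against 11 in Arid1b-fl, 9 for the difference, and 436 against 2468, 55 and 0 between the floxed groups. Without muscle-rich libraries 1 gene was called in Arid1a-fl, 0 in Arid1b-fl and 207 for the difference. With only the groups compared 159 were called in Arid1a-fl, 3 in Arid1b-fl, 527 between Pbrm1-fl and Arid1b-fl and 12 between Arid1a-fl and Arid1b-fl. With no filter 243 were called in Arid1a-fl, 27 in Arid1b-fl and 402 for the difference. In Arid1b-fl 6 were called with the Xist term.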
